A study of Mus musculus with 54 samples.

Results

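The ADAM and ADAMTS genes of the mouse were followed across clones, tumors and lung metastases of the 4T1 mammary carcinoma line. Members were all rows of the expression table whose symbol was Adam, Adamts or Adamtsl followed by a number, with a letter allowed after Adam numbers. This gave 57 of 23481 rows, namely 33 Adam, 19 Adamts and 5 Adamtsl genes. Of the 57 members, 21 lay near the floor in all libraries, meaning that no library reached a normalized count of 10, and 36 rose above it. In 24 members the mean of at least 1 clone or specimen reached 50 normalized counts, and their levels are described here.

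RNA-seq covered 23 clones of 4T1, each started by sorting 1 cell, and 4 specimens from mice, with 2 libraries, lettered A and B, for each clone and specimen. The specimens were 2 lung metastases and 2 orthotopic tumors, tumors that grew at the mammary site. Clones E and T are labelled intravasating, that is, able to enter blood vessels when tested in a pool, and the other 21 clones non-intravasating. Every clone stems from 1 cell, all were cultured in the same medium, and the labels give neither host strain nor age nor which cells seeded the specimens. Whether libraries A and B are separate cultures is not stated, and p-values that rest on libraries then measure only their spread, which may be technical. The labels also do not say whether carcinoma cells were sorted out of the mouse tissue.

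ADAM proteins are membrane proteins with a metalloprotease and a disintegrin domain. The catalytic ones cut other membrane proteins close to the cell surface and so release growth factors, cytokines and receptor ectodomains, a process called shedding. ADAMTS proteins are secreted proteases with thrombospondin repeats that cut proteoglycans, procollagens and other matrix proteins, while ADAMTS-like proteins share the repeats but lack the protease domain. Many other ADAMs are made mainly in the testis or epididymis, where they serve fertilisation.

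The catalytic members share a zinc-binding site, in which 3 histidines hold the zinc ion and a glutamate takes part in the cut. The coding stretch of this site is shown for the members on which the results turn, because a residue close to its last histidine differs among the proteoglycan-cutting ADAMTS genes. The pattern searched in the translated GENCODE transcripts on GRCm38 was the zinc-site series of fixed residues, with glycine, asparagine or serine before the last histidine. Glycine stood there in 33 members, asparagine in 5, and serine in 1, and 18 members had no match, among them the 5 ADAMTS-like genes. Each stretch reads 5′ to 3′ on the coding strand, and capitals mark the codons of the histidines, the glutamate and the glycine, asparagine or serine.
Adam10: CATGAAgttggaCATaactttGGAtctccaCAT
Adam17: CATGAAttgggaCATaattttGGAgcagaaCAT
Adam12: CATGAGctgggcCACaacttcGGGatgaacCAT
Adam19: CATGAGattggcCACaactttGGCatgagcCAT
Adamts5: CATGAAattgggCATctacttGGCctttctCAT
Adamts14: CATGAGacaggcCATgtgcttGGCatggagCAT
Adamts1: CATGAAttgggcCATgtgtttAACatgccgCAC
Adamts9: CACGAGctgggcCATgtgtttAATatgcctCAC
Adamts4: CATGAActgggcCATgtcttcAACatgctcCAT
Adamts8: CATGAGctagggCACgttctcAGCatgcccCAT
Adam10 and Adamts8 lie on chromosome 9, Adam17 on chromosome 12, Adam12 on chromosome 7, Adam19 on chromosome 11 and Adamts14 on chromosome 10. Adamts9 lies on chromosome 6, Adamts4 on chromosome 1, and Adamts1 and Adamts5 neighbour each other on chromosome 16. In the mm10 annotation Adamts1 spans chr16:85793827-85803113, Adamts9 chr6:92772699-92943492 and Adam12 chr7:133883199-134232146, each on the minus strand. The asparagine form was found in Adamts1, Adamts4 and Adamts9 and in the near-floor members Adamts15 and Adamts20. Adamts8 had the serine form, and Adamts5 the glycine form, though all 7 of these genes belong to the proteoglycan-cutting group.

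The starts of Adamts1 and Adamts9 are shown because these genes had opposite patterns across the clones. The windows run from 250 bases before to 50 bases after the gene start in RefSeq on GRCm38.p6, on the minus strand, at chr16:85803064-85803363 for Adamts1 and chr6:92943485-92943784 for Adamts9. Capitals mark TATAAA.
Adamts1: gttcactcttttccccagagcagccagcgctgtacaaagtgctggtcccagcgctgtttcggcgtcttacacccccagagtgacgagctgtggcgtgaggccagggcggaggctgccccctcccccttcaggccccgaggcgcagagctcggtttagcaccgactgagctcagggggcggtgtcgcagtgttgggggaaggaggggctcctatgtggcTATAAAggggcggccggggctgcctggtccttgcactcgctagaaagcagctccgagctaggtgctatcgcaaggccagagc
Adamts9: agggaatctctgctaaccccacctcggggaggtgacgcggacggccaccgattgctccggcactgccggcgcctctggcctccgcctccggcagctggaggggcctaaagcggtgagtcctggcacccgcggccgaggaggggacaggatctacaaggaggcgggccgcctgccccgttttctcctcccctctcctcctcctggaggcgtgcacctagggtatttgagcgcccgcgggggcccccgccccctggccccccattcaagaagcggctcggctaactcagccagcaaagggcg
The letters GGGCGG, a GC box, were found 3 times in the Adamts1 window and 1 time in the Adamts9 window, counting both strands, against at least 1 time in 35.7% of all 32851 windows. TATAAA was found 1 time in Adamts1 and 0 times in Adamts9, against 13.6% of all windows. Neither window held TGANTCA, the AP-1 letters, which 7.8% of all windows held, nor CATTCC, the TEAD letters, held by 14.7%, nor CAGGTG, letters bound by ZEB and SNAI factors, held by 20.2%. A match is only a run of letters, and 31 of the 57 members had a window in the RefSeq table.

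Libraries held 15581390 to 31609870 reads in the intravasating clones and 8849257 to 27304778 in the other clones. They held 16327693 to 20368740 reads in lung metastases and 12183058 to 17369960 in tumors. Some specimen libraries stood apart from their partner. In lung metastases the A libraries had 19868 to 20278 genes with a read, and the B libraries 16604 to 16972. Among the members above the floor with at least 10 normalized counts in a library, library B of Tumor_2 had at least 2 times the value of library A in 14 of 31, and library A of Lung_1 at least 2 times that of library B in 10 of 35. Results of the specimens are therefore also given without these libraries.

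The near-floor members were mostly genes of the reproductive tract, 12 of 21 in that group. They were Adam2, Adam6a, Adam6b, Adam7, Adam20, Adam24, Adam25, Adam26a, Adam26b, Adam29, Adam34 and Adam39. The others near the floor were Adam23, Adamts13 (the protease of von Willebrand factor), Adamts15, Adamts17, Adamts18, Adamts19, Adamts20, Adamtsl1 and Adamtsl2. Of the 57 members, 5 had no read in any clone library, namely Adam24, Adam26a, Adam26b, Adam29 and Adamtsl2. A read in every library was found for 25 members.

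Levels between genes are compared per kilobase of annotated exon. The median over the 23 clones was 365 normalized counts per kilobase for Adam10, 364 for Adam17 and 351 for Adam9. Adamts1 followed with 260.2, Adam19 with 245, Adamts14 with 184 and Adam15 with 94.9. Membrane sheddases and the secreted proteases Adamts1 and Adamts14 thus led the family, and the medians of all near-floor members were at most 0.08 per kilobase.

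**Figure D1:**
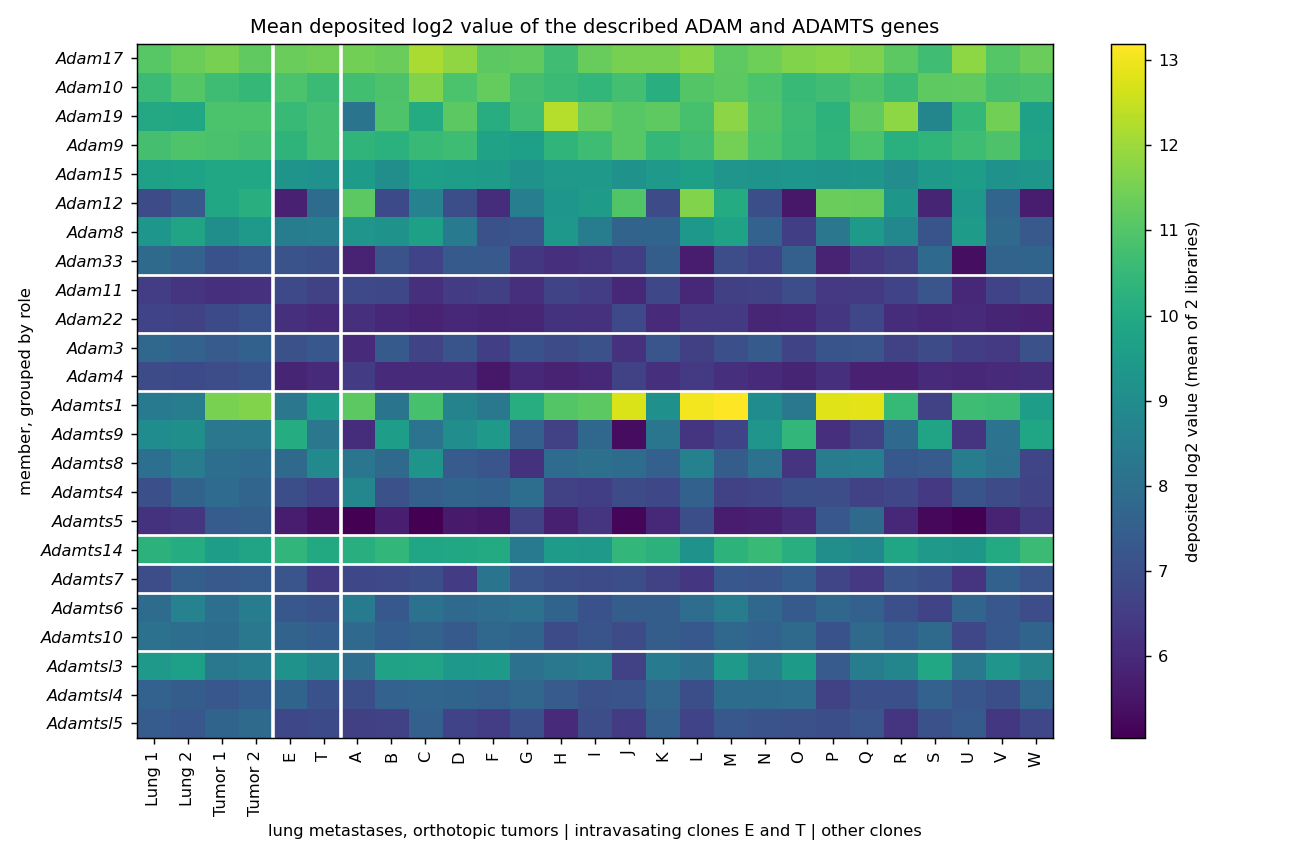
Mean deposited log2 value (colour, mean of the 2 libraries) of the 24 members with at least 50 normalized counts in a clone or specimen. Rows are genes in groups by role and columns are lung metastases, tumors, clones E and T and the other clones. Adamts1, Adam12 and Adamts9 change colour most from clone to clone, while Adam17, Adam10, Adam9 and Adam15 stay close to 1 colour.

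Among the 23 clones, 31 of 32 tested members differed by limma's moderated F-test, but 95.1% of all 13637 genes tested did so too. Adam21, a testis ADAM, was the member that did not pass, with an adjusted p of 0.384. A range of at least 2 on the log2 scale between the lowest and the highest clone was seen in 11 of 32 members and in 13.7% of all genes. The median range was 1.47 for members and 1.15 for all genes tested. The deposited log2 scale shrinks differences of low genes, so a range there is smaller than the log2 ratio of the counts.

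The general sheddases had ranges of 0.65 for Adam15, 1.47 for Adam17 and for Adam10, and 1.83 for Adam9 on the log2 scale. Adam17, which releases TNF and EGF receptor ligands, had a mean normalized count of 2494 in E and 2674 in T, against 1610 in clone S, a median of 2604 and 4561 in clone C among the other 21. Adam10, which cuts Notch receptors and E-cadherin, had 1813 in clone E and 1489 in clone T, against 1097 in clone K, a median of 1795 and 3166 in clone C. Both intravasating clones thus lay inside the range of the others, and clone C was highest for both genes. Adam9, a broadly made sheddase, ran from 742 in clone G to 2815 in clone M, and Adam15, a sheddase with an integrin-binding motif, from 458 in clone R to 772 in clone L. Exons of Adam17 and of Adam15 overlap those of Iah1 and 4731419I09Rik on the opposite strand, and the strand setting of the counting is not given in the sources used here.

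Adam12 and Adam19 varied more between clones. Adam12, a sheddase also called meltrin alpha, had a mean of 9.76 in clone E and 182 in clone T. In the other clones it had 3174 in clone L, 2500.1 in P, 2437 in Q, 2193 in A, 1958 in J and 1008 in M, and 4.31 in O, 7.04 in W, 11.9 in S and 19.5 in F. Its range was 6.10 on the log2 scale, and 6 clones were above 1000 normalized counts while 9 were below 100. Adam19, called meltrin beta, ran from 226 in clone A and 381 in S to 3545 in R and 4949 in H, with 1446 in clone E and 1665 in clone T. Clone A was therefore lowest for Adam19 and among the 4 highest for Adam12. Exons of Adam19 overlap those of Gm16033 and Gm16034 on the opposite strand.

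Adam8, a sheddase known from leukocytes and from aggressive tumors, ran from 40.6 in clone O to 783 in clone M, with 299 in clone E and 309 in clone T. Adam33, a meltrin relative known from mesenchyme, ran from 1.59 in clone U to 167 in clone S, with 81.6 in clone E and 73.4 in clone T. Clones E and T lay inside the range of the others for both genes. Exons of Adam8 overlap those of Gm16201 on the opposite strand. The last of the 9 sheddases, Adam28, stayed at a clone median of 0.639.

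The ADAMs without a working protease were low. Adam11 had 58.2 in clone E and 45.6 in clone T, against 13.4 in clone U, a median of 42.1 and 87.0 in clone S. Adam22, a receptor for LGI proteins in neurons, had 21.3 in clone E and 15.9 in clone T, against 9.05, a median of 15.1 and 57.7 in the others. Among the reproductive ADAMs, Adam3, a sperm protein needed for passage into the oviduct, was the highest, with 75.7 in clone E and 96.9 in clone T, against 16.3 in clone A, a median of 66.6 and 107 in clone N. Its neighbours on chromosome 8 were lower, with clone medians of 3.28 for Adam5 and 2.88 for Adam18, and Adam32 had 8.85. Adam3 overlaps Gm45528 on the opposite strand, and Adam32 starts 807 bases past the end of Adam9 on the same strand.

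On the deposited log2 scale the widest range of any member was that of Adamts1, a protease of versican and other proteoglycans. Its normalized counts were 271 and 227 in the libraries of E and 661 and 679 in those of T. In the other clones it was 9324 in M, 8327 in L, 7539.9 in Q, 7073 in P and 6753 in J, while clone S had 45.9, B had 228, and O and F had 256 each. The sixth clone was at 2214, so 5 clones stood well above the rest. The range of 6.54 on the log2 scale is a 203-fold ratio of the counts in clones M and S. By that ratio Adam12 was wider, at 737-fold, and so was Adamts9, at 512-fold, each with a lowest clone under 10 normalized counts.

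Adamts9, a versican protease that also acts in the cilium and the secretory pathway, was high in other clones. Its libraries had 1112 and 951 normalized counts in clone E and 222 and 273 in clone T. In the other clones it was 1308 in O, 868 in W, 821 in S, 720.1 in B and 621 in F, and 2.56 in J, 18.5 in A, 20.97 in P, 25.4 in L and 25.8 in U. The 4 clones highest in Adamts9, namely O, E, W and S, were the 4 lowest in Adam12, and all of them but W were among the lowest in Adamts1. Exons of Adamts9 overlap those of A730049H05Rik and Gm15737 on the opposite strand.

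Across the 23 clone means of the log2 values, Adamts1 and Adam12 had a Pearson r of 0.91 and a Spearman rho of 0.91. Adamts1 and Adamts9 had r = -0.88 and rho = -0.87. Adam12 and Adamts9 had r = -0.94 and rho = -0.95. These are descriptions of 23 clones of 1 cell line, with the pairs picked after their values were seen. Without the 2 clones farthest from the median of the first gene, r was 0.93, -0.89 and -0.94. Adamts9 also went with Adam33 (r = 0.78) and with Adamtsl3 (r = 0.75). Adamts1, Adam12 and Adamts9 are on different chromosomes. The neighbours Adamts1 and Adamts5, which lie 53060 bases apart on chromosome 16, had r = 0.41 and rho = 0.24.

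Cdh1, the gene of the epithelial adhesion protein E-cadherin and an ADAM10 substrate, ran with these genes. Its r was 0.85 with Adam12, 0.82 with Adamts1 and -0.83 with Adamts9 over the same 23 clones. Cdh1 had 24203 normalized counts in clone L and 19829 in M, which were high for Adam12 and Adamts1, and 217 in O, 529 in S, 917 in F and 1678 in W, which were high for Adamts9. Its part in the pattern was not tested.

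**Figure D2:**
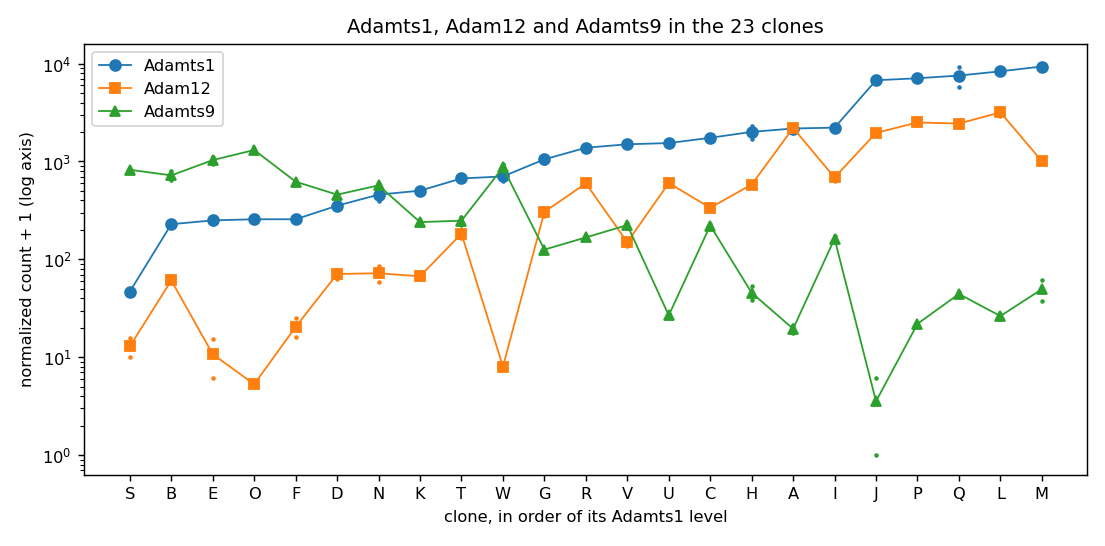
Normalized count plus 1 (log axis) of Adamts1, Adam12 and Adamts9 in the 23 clones, in order of Adamts1. Large symbols are means of 2 libraries, joined by lines to guide the eye, and small dots are the libraries. Clones J, P, Q, L and M on the right have Adamts1 of at least 6753 and Adamts9 of at most 48.6, and clones S, B, E, O and F on the left have Adamts1 of at most 256 and Adamts9 of at least 621.

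The other proteoglycan-cutting genes each had their own high clones. Adamts8 had 173 in clone E and 423 in clone T, against 24.6 in clone G, a median of 178 and 551 in clone C, and only clone C among the other 21 was above clone T. Adamts5, known as the main aggrecan protease of mouse cartilage, had 6.95 in clone E and 1.90 in clone T, against 173 in clone Q, 93.2 in P and 71.4 in L. No read of Adamts5 was found in clones A, C and U. Adamts4, also an aggrecan protease, had 71.5 in clone E and 48.7 in clone T, against 31.3 in clone S, a median of 63.3 and 386 in clone A. Exons of Adamts8 overlap those of Gm29724 on the opposite strand.

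Adamts14, a protease that trims the N-propeptide of procollagen, had 1292 in clone E and 958 in clone T, against 285 in clone G, a median of 918 and 1496 in clone W. Its relatives Adamts2 and Adamts3 had clone medians of 0.567 and 0. Adamts7, a protease of the cartilage protein COMP, had 88.7 in clone E and 34.0 in clone T, against 26.3 in clone U, a median of 69.7 and 229 in clone F. Adamts6 and Adamts10, both tied to fibrillin microfibrils, had highest clone means of 300.1 and 172. Exons of Adamts7 overlap those of Tbc1d2b on the opposite strand.

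Of the ADAMTS-like genes, Adamtsl3 had 538 in clone E and 401 in clone T, against 43.2 in clone J, a median of 327 and 897 in clone S. Adamtsl4, which binds fibrillin and is mutated in human lens dislocation, had 143 in clone E and 78.9 in clone T, against 45.2 in clone P, a median of 125 and 190 in clone O. Adamtsl5 ran from 16.3 in clone H to 128 in clone K. The range of Adamtsl3 was 3.29 on the log2 scale, that of Adamtsl5 1.52 and that of Adamtsl4 1.33.

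The 2 intravasating clones were set against the other 21 with 1 value per clone. By limma with Benjamini-Hochberg adjustment over all genes, 0 of 32 members and 0% of all genes tested passed an adjusted p of 0.05. Without adjustment, 0 members and 109 genes were under 0.05. The estimated difference was -1.72 ± 1.39 (SE) on the log2 scale for Adam12, -1.50 ± 1.25 for Adamts1 and 1.32 ± 1.03 for Adamts9, each with an adjusted p of 0.9999. All differences below are likewise given ± SE on the deposited log2 scale. None of these differences held up against the spread between clones. When single clones were left out, the difference ran from -2.78 to -0.65 for Adam12, from -2.12 to -0.88 for Adamts1 and from 0.41 to 2.23 for Adamts9.

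The rule that the labels describe asks whether a gene exceeds 11 or more of the 21 others in E and also in T, here with limma contrasts on the libraries. Of 32 members, 1 was higher and 2 were lower by the mirrored rule, against 2.14% and 1.61% of all genes, and 3.75% in either direction. Adamts9 was the higher one, above 18 of 21 clones in clone E and above 11 in clone T. Adam12 was below 17 of 21 clones in clone E and below 12 in clone T. Adamts1 was below 17 in clone E and below 13 in clone T. Adamts9 met the minimum exactly in clone T, and was lower there than in 7 clones.

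Partner genes were counted by the same rule, which called 2.14% of all genes higher and 1.61% lower. Of 10 tested genes for iRhoms, convertases and the tetraspanins that accompany ADAM10, 0 were higher and 3 were lower, namely Furin, which removes ADAM prodomains, Rhbdf1, an iRhom that carries ADAM17 to the surface, and Tspan14. Of 5 tested inhibitors and clearance genes, Reck, a membrane inhibitor of ADAM10, was higher than 13 others in clone E and 14 in clone T, and 0 were lower. Of 19 tested shed ligands and receptors, 0 were higher and 2 were lower, Cdh1 and the chemokine Cxcl16. Of 9 tested matrix substrates and glycosylation genes, 0 were called in either direction.

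Between clones E and T, 9 of 32 members differed by limma, against 28.7% of all genes tested. Of these, 5 were higher in E, against 15.3% of all genes, and 4 were lower, against 13.4%. The members' median difference was 0.12 and that of all genes 0.01.

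The Adam12 libraries had 5.10 and 14.4 in clone E and 165 and 199.8 in clone T, in normalized counts. The libraries did not overlap, and the difference was -2.14 ± 0.13 on the log2 scale, with an adjusted p of 2.62e-14. Adamts9, with the values given above, was higher in E by 1.83 ± 0.14 (adjusted p = 6.61e-12). Adamts1 was lower in E, with a difference of -1.24 ± 0.15 (adjusted p = 1.32e-07). These 3 members had the widest ranges on the log2 scale among all clones. Those ranges include E and T, so their separation here is not an independent observation.

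Adamts8 had 135 and 211 in clone E and 433 and 412 in clone T, a difference of -1.08 ± 0.19 (adjusted p = 4.21e-05). Adamts7 had 103 and 74.5 in clone E and 44.8 and 23.3 in clone T, a difference of 0.76 ± 0.14 (adjusted p = 8.08e-05). In both genes the libraries of the clones did not overlap. Adam9 was lower in E, with 1226 and 1228 against 1736 and 1619, a difference of -0.43 ± 0.10 (adjusted p = 0.00109). Adamtsl4 was higher in E by 0.57 ± 0.14 (adjusted p = 0.00206), Adamts14 by 0.41 ± 0.14 (adjusted p = 0.0312), and Adamtsl3 by 0.37 ± 0.13 (adjusted p = 0.0265). Leaving out single libraries of E or T ended the calls of Adamts14 and Adamtsl3.

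Among partners, the tetraspanin Tspan15, which directs ADAM10 to N-cadherin, had 468 in clone E and 141 in clone T, a difference of 1.40 ± 0.13 (adjusted p = 8.06e-10). In its list of 10 tested genes, 3 were higher and 0 lower, while 15.3% of all genes were higher in E and 13.4% lower. Timp1, an inhibitor of metalloproteases, was lower in E by a difference of -0.99 ± 0.19 (adjusted p = 0.000185), while Lrp1, a receptor that clears ADAMTS proteases from the matrix, was higher by 1.21 ± 0.24 (adjusted p = 0.000235). Of the 5 tested in that list, 2 were higher and 1 was lower. Shed proteins were called in both directions, 6 higher and 6 lower of 19, with Cxcl16 lower in E (difference -1.43 ± 0.12, adjusted p = 1.38e-10).

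**Figure D3:**
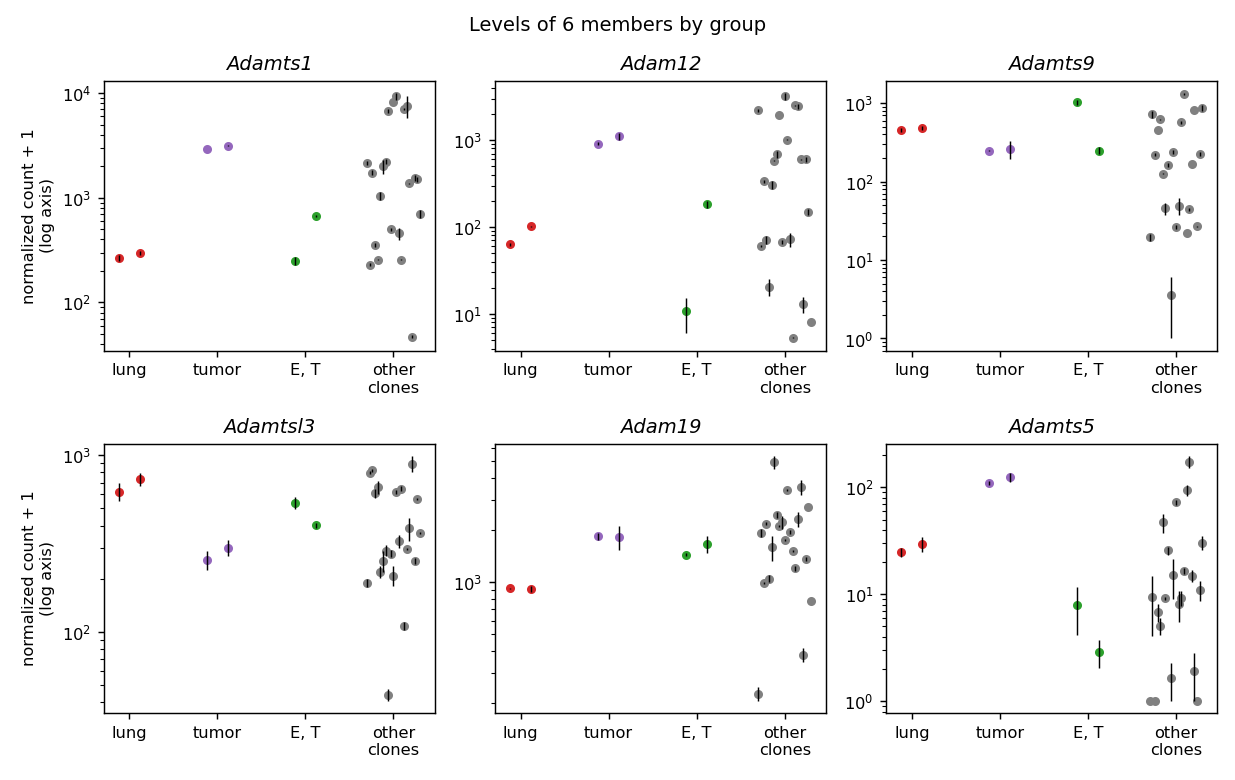
Normalized count plus 1 (log axis) of Adamts1, Adam12, Adamts9, Adamtsl3, Adam19 and Adamts5, with 1 point per lung metastasis, tumor or clone (mean of 2 libraries) and a line between its libraries. The clones are E and T and then the 21 others in order of letter. Both lung metastases lie below both tumors for Adamts1, Adam12, Adam19 and Adamts5 and above them for Adamts9 and Adamtsl3.

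Lung metastases and orthotopic tumors were compared with 1 value per specimen, 2 against 2. By limma, 10 of 33 members passed an adjusted p of 0.05, against 31.4% of all genes. Of these, 5 were higher in lung metastases, against 16.6% of all genes, and 5 were lower, against 14.8%. The median difference was 0.06 for members and 0.02 for all genes.

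Adamts1 had 280.3 and 249 normalized counts in the libraries of Lung_1 and 281 and 312 in those of Lung_2. In Tumor_1 it had 2934 and 2942, and in Tumor_2 3124 and 3187. The groups did not overlap, and the difference was -3.19 ± 0.11 (adjusted p = 4.2e-06). Both tumors were above all clones but M, L, Q, P and J, and both lung metastases were below all clones but S, B, E, O and F.

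Adam12 had 60.2 and 64.6 in Lung_1 and 100.2 and 103 in Lung_2, against 937 and 867 in Tumor_1 and 1013 and 1215 in Tumor_2. All lung libraries were lower than all tumor libraries, with a difference of -2.95 ± 0.17 (adjusted p = 2.21e-05). Adamts5 had 23.8 and 28.5 in the lung metastases and 109 and 124 in the tumors, a difference of -1.18 ± 0.13 (adjusted p = 0.000427). Adam19 had 920.3 and 917 in the lung metastases and 1844 and 1830 in the tumors, a difference of -0.94 ± 0.10 (adjusted p = 0.000474). Neither of these genes overlapped between the specimen groups. Adamtsl5 was lower by a difference of -0.43 ± 0.13 (adjusted p = 0.0373), with 110 and 94.6 in the lung metastases and 141 and 174 in the tumors. The Adamtsl5 call ended without library A of Lung_1 (adjusted p = 0.0637), without library B of Tumor_2 (0.0648), and without Lung_2 (0.0843), Tumor_1 (0.0866) or Tumor_2 (0.211).

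Adamtsl3 had 622 and 731 in the lung metastases and 255 and 299 in the tumors, a difference of 1.13 ± 0.13 (adjusted p = 0.000577). Adamts9 had 451 and 482 in the lung metastases and 249 and 259 in the tumors, a difference of 0.76 ± 0.11 (adjusted p = 0.00179). Both genes were higher in every lung library than in every tumor library. Adam5, a testis ADAM, had 29.2 and 40.9 in the lung metastases and 7.40 and 6.62 in the tumors, a difference of 0.77 ± 0.13 (adjusted p = 0.00354). Adam33 had 172 and 136 in the lung metastases and 77.9 and 98.6 in the tumors, a difference of 0.57 ± 0.14 (adjusted p = 0.0141). Library B of Tumor_2, at 138, was as high for Adam33 as the lung libraries other than library A of Lung_1, which had 207. The Adam33 call ended without Tumor_1 (adjusted p = 0.121), without Tumor_2 (0.0676) and with the B libraries alone (0.577), and the Adam5 call ended without Tumor_2.

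Adamts14 was called higher, with 1220 and 1033 in the lung metastases and 720.2 and 942 in the tumors, a difference of 0.49 ± 0.12 (adjusted p = 0.0155). Its libraries were far apart, with 1561 and 879 in Lung_1 and 462 and 1421 in Tumor_2. With the B libraries alone the difference was -0.003 ± 0.353, and without library A of Lung_1 it was 0.29 ± 0.14 (adjusted p = 0.149). The sheddases Adam17, Adam10 and Adam9 did not pass, with differences of -0.14 ± 0.14, 0.25 ± 0.15 and 0.06 ± 0.11 and adjusted p of 0.475, 0.237 and 0.699.

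With the B libraries alone, 3 members passed, Adamts1, Adam12 and Adamts5, all lower, while 325 genes passed in all. Leaving out library B of Tumor_2 left 9 members called and leaving out library A of Lung_1 left 8. With a specimen or 1 of these libraries left out, the difference ran from -3.25 to -3.12 for Adamts1. It ran from -3.16 to -2.73 for Adam12 and from -1.24 to -1.12 for Adamts5. The number of all genes called changed between the fits too, and its range is given in the last section. Adamts1, Adam12 and Adamts5 passed in each of these fits.

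**Figure D4:**
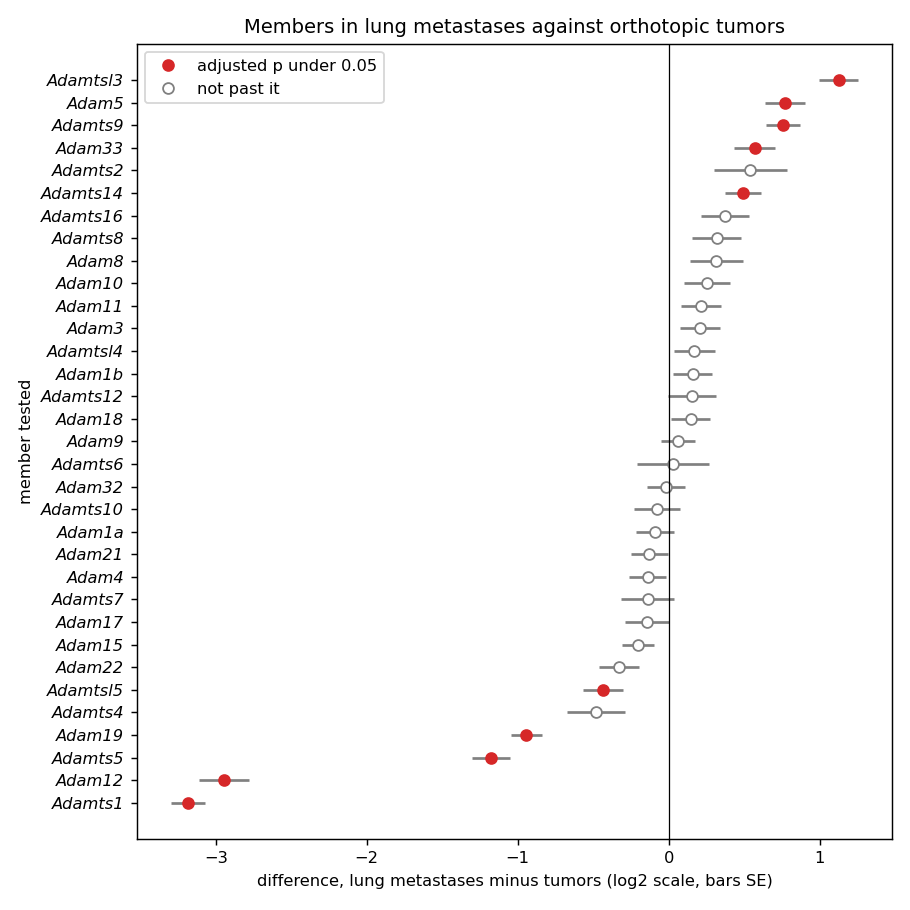
Difference between lung metastases and orthotopic tumors on the deposited log2 scale for the 33 members tested, with bars of 1 SE. Filled points are members with an adjusted p under 0.05, and Adamts1 and Adam12 lie farthest to the left with -3.19 and -2.95.

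Genes that act with the proteases were counted in the same comparison of lung metastases with tumors. Of 10 tested iRhom, convertase and tetraspanin genes, 1 was higher and 3 were lower, while 16.6% of all genes were higher and 14.8% lower. Tspan15 had 398 and 521 in the lung metastases and 84.9 and 75.3 in the tumors, a difference of 1.91 ± 0.14 (adjusted p = 7.77e-05). The iRhoms Rhbdf1 and Rhbdf2 were lower, with differences of -1.09 ± 0.13 (adjusted p = 0.000818) and -0.47 ± 0.11 (adjusted p = 0.0126), and the convertase Pcsk6 was lower by a difference of -1.27 ± 0.12 (adjusted p = 0.00027).

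Of 5 tested inhibitors and clearance genes, 4 were higher and 0 lower, against 16.6% and 14.8% of all genes. Timp3, the main tissue inhibitor of ADAM and ADAMTS proteases, had 129 and 395 in the lung metastases and 42.2 and 41.6 in the tumors, a difference of 1.62 ± 0.33 (adjusted p = 0.0073). Reck had 296 and 366 in the lung metastases and 96.0 and 107 in the tumors, a difference of 1.29 ± 0.13 (adjusted p = 0.000375). Both were higher in both lung metastases than in either tumor.

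Among 20 tested shed ligands and receptors, 6 were higher and 5 lower, against 16.6% and 14.8% of all genes. Cxcl16, released by ADAM10, had 233 and 227 in the lung metastases and 1788 and 1770 in the tumors, a difference of -2.65 ± 0.11 (adjusted p = 4.2e-06). The EGF receptor ligands Tgfa and Areg, released by ADAM17, were higher by 1.33 ± 0.12 (adjusted p = 0.000165) and 1.29 ± 0.19 (adjusted p = 0.00191). Of 9 tested matrix substrates and glycosylation genes, 3 were higher and 0 lower, against the same shares of all genes. Vcan, the proteoglycan versican that ADAMTS1 and ADAMTS9 cut, had 164 and 583 in the lung metastases and 59.0 and 77.7 in the tumors, a difference of 1.63 ± 0.38 (adjusted p = 0.0134).

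Markers of other cells were also compared between lung metastases and tumors, where 16.6% of all genes were higher in lung metastases and 14.8% lower. In bulk RNA fewer cells of a type and less RNA per cell cannot be told apart. The summed macrophage markers, 8 of 9 found, came to 1396 and 2768 normalized counts in the lung metastases and 1204 and 1012 in the tumors, and to 186 to 2232 in the clones. The 8 fibroblast markers summed to 1663 and 4489 in the lung metastases and 833 and 761 in the tumors, and to 158 to 3964 in the clones. Endothelial markers summed to 51.1 and 59.1 in the lung metastases and 23.4 and 29.2 in the tumors. These sums were above the 1.66 to 19.1 of the clones. Of the 3 tested endothelial markers, 0 passed between lung metastases and tumors. Lyz2, a macrophage gene, had 851 and 1831 in the lung metastases and 517 and 337 in the tumors, and at most 6.49 in any clone, and it made up most of the lung sums. Of the 8 tested macrophage markers 2 were higher in lung metastases, Lyz2 and C1qb, and 1 was lower, Cd14, with 226 and 229 in the lung metastases and 321 and 323 in the tumors. Of the 7 tested fibroblast markers 1 was higher, Pdgfra, and 1 was lower, Postn, with 0.449 and 9.92 in the lung metastases and 52.0 and 80.0 in the tumors. Pdgfra made up most of the fibroblast sums, with 1492 and 3394 in the lung metastases and 569 and 512 in the tumors, and clones alone reached 1756. Col1a1 had 45.5 and 337 in the lung metastases and 53.7 and 52.4 in the tumors, so only Lung_2 was above the tumors.

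The 6 carcinoma epithelial markers summed to 21828 and 15378 in the lung metastases and 26710 and 23879 in the tumors, with 14280 to 74599 in the clones. Cdh1 had 2279 and 1341 in the lung metastases and 9034 and 7914 in the tumors, and Epcam 631 and 473 in the lung metastases and 3574 and 3173 in the tumors. Of the 6 markers 4 were lower in lung metastases and 0 higher, while the keratins Krt8 and Krt18 did not pass, with differences of 0.46 ± 0.15 (adjusted p = 0.0503) and 0.28 ± 0.19 (adjusted p = 0.288). The 6 lung epithelial markers stayed at 28.8 and 35.1 in the lung metastases, inside the 16.1 to 60.2 of the clones, with Sftpc, the defining surfactant gene, at 1.72 and 4.54. The part of these markers in the differences of the proteases was not tested.

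Lung metastases and tumors were also each set against the 23 clones, with 1 value per specimen or clone. These comparisons share the clones. Against clones, 7 of 33 members were called higher in lung metastases and 0 lower, while 17.5% of all genes were called, 11.5% higher and 5.94% lower. The 7 include Adamts2, which met the filter only through lung libraries. In tumors 4 of 32 members were called higher and 0 lower, while 5.59% of all genes were called, 4.15% higher and 1.43% lower. The members' median difference was 0.43 in lung metastases, against 0.06 for all genes, and 0.36 in tumors, against 0.04 for all genes.

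Adam4, a testis ADAM, had 63.7 and 61.5 in the lung metastases and 69.3 and 107 in the tumors, and 4.59 to 45.9 in the clones. All 4 specimen means were above all clones. Its difference from the clones was 0.85 ± 0.17 in lung metastases (adjusted p = 0.00071) and 0.99 ± 0.17 in tumors (adjusted p = 0.000435). The libraries of Tumor_2 had 21.4 and 192, and without library B of Tumor_2 the tumor difference was 0.54 with an adjusted p of 0.145.

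Adam15 had 773 and 805 in the lung metastases and 919 and 918 in the tumors, and 458 to 772 in the clones. Both tumors lay above every clone, with a difference of 0.59 ± 0.14 (adjusted p = 0.0124). It was the member still called in tumors without library B of Tumor_2 (adjusted p = 0.00891), and in lung metastases it did not pass (0.38 ± 0.14, adjusted p = 0.0614). Adam22 had 59.7 and 84.4 in the tumors and 9.05 to 57.7 in the clones, a difference of 0.86 ± 0.20 (adjusted p = 0.00783). Adam21, with 12.5 and 16.4 in the tumors and 1.03 to 11.3 in the clones, differed by 0.42 ± 0.11 (adjusted p = 0.0169). Without library B of Tumor_2 these 2 genes no longer passed, with adjusted p of 0.0687 and 0.105.

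In the tumors, the calls of Adam15, Adam21 and Adam22 ended without Tumor_1, and these and that of Adam4 ended without Tumor_2. With a tumor or library B of Tumor_2 left out, the difference ran from 0.54 to 1.04 for Adam4. For Adam15 it ran from 0.58 to 0.65. With all libraries Adamts5 and Adamtsl5 did not pass, with differences of 1.56 ± 0.49 (adjusted p = 0.0606) and 0.91 ± 0.28 (adjusted p = 0.0526), but both passed with the B libraries alone.

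Adamts2, which trims procollagen and is made by fibroblasts, had 11.7 and 3.71 in the libraries of Lung_1 and 39.7 and 39.6 in those of Lung_2, and at most 2.75 in any clone. Its difference from the clones was 0.94 ± 0.13 (adjusted p = 5.7e-06). The fibroblast collagen genes Col1a1 and Col3a1 had 45.5 and 14.0 in Lung_1 and 337 and 199 in Lung_2, and at most 11.5 and 1.61 in any clone, and their part in the result was not tested. Adamts16 had 8.499 and 20.2 in the lung metastases and 0 to 18.7 in the clones, a difference of 0.74 ± 0.17 (adjusted p = 0.00303). Only Lung_2 was above all clones for Adamts16.

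Adam5 was higher in lung metastases than in the clones by 0.98 ± 0.21 (adjusted p = 0.00157), with 0 to 26.9 in the clones. Adam3 had 156 and 134 in the lung metastases and 16.3 to 107 in the clones, a difference of 0.80 ± 0.26 (adjusted p = 0.0318). Adam18 and Adam1b, both of the reproductive group, differed by 0.50 ± 0.14 (adjusted p = 0.012) and 0.46 ± 0.13 (adjusted p = 0.0171). Adam18 had 14.5 and 14.0 in the lung metastases and Adam1b 11.4 and 12.4. Without library A of Lung_1, Adam3, Adam18 and Adam1b no longer passed, with adjusted p of 0.0522, 0.0605 and 0.0605. The calls of these genes also ended when either lung metastasis was left out. Without Lung_2, Adam4 alone stayed called.

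Adamts1 and Adam12 did not pass against the clones in either kind of specimen. For Adamts1 the difference was -1.85 ± 1.23 in lung metastases and 1.33 ± 1.23 in tumors, with adjusted p of 0.318 and 0.634. For Adam12 it was -1.31 ± 1.37 and 1.64 ± 1.37, with adjusted p of 0.552 and 0.588. Vcan, named for tumors after its values were seen, was higher than in the clones in both, by 2.59 ± 0.19 in lung metastases (adjusted p = 8.25e-11) and 0.95 ± 0.12 in tumors (adjusted p = 3.99e-06), and Timp3 by 2.48 ± 0.29 (adjusted p = 2.73e-07) and 0.86 ± 0.25 (adjusted p = 0.0443). In the list that holds Vcan, 7 of 10 tested genes in lung metastases and 6 of 10 in tumors were higher and 0 lower. Over all genes 11.5% were higher in lung metastases and 4.15% in tumors. Col1a1, Col1a2 and Col3a1 are in this list and also among the fibroblast markers. Col3a1 met the filter only through specimen libraries. Of the 7 tested fibroblast markers, 6 were higher in lung metastases and 5 in tumors, and 0 lower. Their part in the list's count was not tested.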

How the data were processed

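Libraries were made from 100 ng of amplified total RNA and read with 76-base reads, per the labels' protocols. Bowtie2, HTSeq and DESeq were used with build mm10, per the submitters' processing notes, with versions and strand setting not given in the sources used here. The authors deposited log2 values that, read from the values, follow a variance-stabilising curve with a floor of 5.03. Inverting the curve and dividing by the value of 1 read gave whole reads, within 0.01, for 100% of values, and normalized counts are printed from it. Counting error is the only error that depth covers.

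Genes that reached 10 normalized counts in 2 or more libraries of a comparison were tested on the deposited log2 values. The tests used limma 3.58.1 in R 4.3.3 (variance trend, two-sided, Benjamini-Hochberg over all genes tested, threshold 0.05). The fits were also run on simulated data, which held no spread between specimens for lung metastases against tumors. No result here rests on those runs. Clones were compared on 46 libraries, and groups on the mean of 2 libraries. The alternatives were log2(normalized count + 1), no filter, quantile normalization, a replicate block and left-out libraries, clones or specimens. Leaving out library B of Tumor_2 and library A of Lung_1 was chosen after seeing the data.

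Members with a mean of at least 50 in a clone or specimen were described, the 10 largest differences past the threshold were named, and at most 4 genes of each partner or marker list. The members, partner lists and marker lists were chosen with earlier results of these data known. The reported fits treated library letters and specimen numbers as unpaired, and the checks cannot exclude a pairing. Deviations of A libraries correlated between clones at a median of 0.077, the lowest being -0.489, with 43.5% of clone pairs over 0.1. Deviations of the specimens numbered 1 correlated at -0.098. In 27 rows the symbol had been turned into a date; they stayed in the tests and none is a member or listed gene.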

Additional observations from a re-analysis of the deposited data

Results flagged for a closer look

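Clones E and T lay on opposite sides of the median of the 21 other clones, with a tested difference between them, in 4 members. In normalized counts, Adam9 had 1227 in E and 1677 in T around a median of 1445 (E minus T -0.43). Adamts7 had 88.7 in E and 34.0 in T around 69.7 (0.76), and Adamts8 had 173 in E and 423 in T around 178 (-1.08). Adamtsl4 had 143 in E and 78.9 in T around 125 (0.57). For Adamts8 clone E was close to the median, and its libraries, given above, lay on both sides of it. The distance of a clone from the median was not tested.

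Lung metastases and tumors lay on opposite sides of the median of the 23 clones, with a tested difference between them, in 5 members. For Adamts1 the specimen means were 280.3 in lung metastases and 3047 in tumors around a clone median of 1380 (difference -3.19), and for Adam12 they were 82.0 and 1008 around 304 (-2.95). For Adam19 they were 919 in lung metastases and 1837 in tumors around 1746 (-0.94). For Adamts14 they were 1127 and 831 around 958 (0.49), and for Adamtsl3 they were 676 and 277 around 362 (1.13). The Adamts14 libraries of Lung_1 and of Tumor_2 lay on both sides of the clone median, and its difference turned direction with the B libraries alone. The Adam19 libraries of Tumor_2 also lay on both sides of the clone median.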

How the results depend on the processing

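Against the clones, the tumor count of 4 called members became 10 with no filter, 2 with quantile normalization, 7 with B libraries alone and 0 to 1 when a specimen or library B of Tumor_2 was left out. The lung count of 7 became 30 with no filter, 4 with quantile normalization, 3 with B libraries alone and 1 to 5 in leave-one-out fits. The lung calls with no filter included Adam7, Adam24, Adam25, Adam26a, Adam26b and Adam29. These near-floor members had 1 to 6 reads in the lung A libraries and 0 in the lung B libraries. Between lung metastases and tumors, 10 became 3 with B libraries alone and 6 to 16 in leave-one-out fits. The filter changes how many genes are tested, and B libraries alone leave 1 library a specimen; for the others the cause was not tested. With the B libraries alone the Adamts14 difference turned to -0.003. Leave-one-out counts were 29 to 31 among the clones, 7 to 9 between E and T, and 0 for intravasating against other clones. With a replicate block by library letter the counts were 31 among clones, 9 between E and T and 3 under the rule of the labels, and with a block by specimen number 12 between lung metastases and tumors, so no other count moved by over 1.5 times. Over the named members, 275 alternative values kept their direction and side of the threshold, 59 kept only the direction, and 1 turned its direction. Of the 275, 78 were for intravasating against other clones, where Adam12, Adamts1 and Adamts9 had not passed in the reported fit. Against the clones, 16 values were kept and 12 kept only the direction for tumors, and 28 and 19 for lung metastases. Fits in which a member was not tested are not in these numbers. Over all genes, calls ran from 73 to 2241 in tumors against clones (775 in the reported fit), from 413 to 7856 in lung metastases against clones (2466), and from 325 to 4650 between lung metastases and tumors (4305). A group of 2 clones or 2 specimens limits what can pass, and low members such as Adam5 or Adamts2 rest on few reads.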
